A study of Mus musculus with 46 samples.

Results

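Replication origin licensing was followed through 10 genes chosen by their role and not by a measured value: the helicase subunits Mcm2, Mcm3, Mcm4, Mcm5, Mcm6 and Mcm7, the loading factors Cdc6 and Cdt1, the activation factor Mcm10 and the inhibitor Gmnn. All 10 were among the 20999 genes of the deposited count table, and all 10 were among the 12230 genes that passed a filter on low counts. Their RNA was measured in 10 libraries of mouse microglia, the resident macrophages of the brain, in 5 groups of 2, and their promoters were looked up in 20 lists of chromatin peaks. The cells came from brains of male C57BL/6 mice.

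The adult RNA group held microglia of untreated wild-type mice aged 90 days, without a reporter allele. The labels also call these cells Ki67-negative. The other 4 RNA groups came from mice carrying Ki67-rfp, a fluorescent reporter of the proliferation marker Ki67, and were split into Ki67-negative and Ki67-positive cells. One pair of these groups was taken from untreated pups at postnatal day 8 (PND8). The other pair, called repopulation here, was taken at 75 days of age, after 17 days on a diet with PLX5622 that began on day 55 and 3 days of recovery. PLX5622 inhibits the receptor CSF1R and removes most microglia, which regrow from the survivors once it is withdrawn. The protocol calls the 2 libraries of a group independent biological replicates and does not say how many animals each held.

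The chromatin lists came from C57BL/6 cells that were fixed and stained with an antibody against Ki67, except those from assay for transposase-accessible chromatin (ATAC-seq). H3K27ac, an acetylation of histone H3 found at active promoters and enhancers, was mapped in 12 libraries: untreated adults of 60 and 65 days, PND8 Ki67-negative and Ki67-positive cells, Ki67-negative and Ki67-positive cells of 90-day-old mice fed cuprizone for 4 weeks, and repopulating Ki67-positive cells of 90-day-old mice given PLX5622 from day 70, with 2 libraries in each group. Cuprizone is a copper chelator that strips myelin. Rpb2, a core subunit of RNA polymerase II, was mapped in adults (60 and 65 days) and in 1 library of PND8 Ki67-positive cells. H3K4me3, a promoter mark, was mapped in 2 libraries of 75-day-old adults. ATAC-seq had 1 library each of adult cells (80 days), PND8 Ki67-positive cells and repopulating Ki67-positive cells; its titles name the reporter line while its genotype labels say wild type. Ages are those of the age labels; the title of the second adult Rpb2 library gives 60 days in place of 65, and file names of the repopulation H3K27ac lists give a younger age than 90 days, and that of the repopulation ATAC-seq list an older age than 75 days.

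Licensing is the step that makes a stretch of DNA ready to be copied. In late mitosis and G1, the origin recognition complex and CDC6 sit on DNA and, together with CDT1, thread the ring of MCM2 to MCM7 around it. Once S phase begins the ring is switched on as the replicative helicase with the help of CDC45, the GINS complex, the kinase CDC7 with its partner DBF4, and MCM10. Loading is then blocked until the next mitosis: CDT1 is bound by geminin, the product of Gmnn, and is destroyed through an ubiquitin ligase whose substrate receptor is encoded by Dtl, while geminin itself is destroyed in mitosis and G1 by the anaphase-promoting complex with its activators CDC20 and FZR1. Many of these genes are textbook targets of the E2F transcription factors, with RNA that peaks around the start of S phase. Microglia divide widely in the first postnatal weeks and during regrowth after depletion, and rarely in the untreated adult.

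Promoter sequences are shown for members whose ATAC-seq peaks, described further on, overlap the stretch before the start. RefSeq (GRCm38.p6) entries were matched for 8 of the 10 genes, in 9 entries because Mcm7 has more than 1 start; Mcm4 and Gmnn had no entry. Each run gives the 250 bases before the annotated start, 5′ to 3′ on the gene's own strand, for the 6 genes in which an ATAC-seq peak overlapped that stretch in all 3 libraries. Capitals mark letters that match an E2F-type motif (TTCCCGC or TTGGCGC or TTCGCGC), the CCAAT box (CCAAT) or the cell-cycle homology region, CHR (TTTGAA or TTCGAA), on either strand. The runs are Mcm3 at chr1:20820313-20820562 on the minus strand, Mcm5 at chr8:75109259-75109508 on the plus strand, Mcm6 at chr1:128359706-128359955 on the minus strand, Mcm7 at chr5:138171884-138172133 on the minus strand, Cdt1 at chr8:122567765-122568014 on the plus strand, and Mcm10 at chr2:5012792-5013041 on the minus strand.
Mcm3: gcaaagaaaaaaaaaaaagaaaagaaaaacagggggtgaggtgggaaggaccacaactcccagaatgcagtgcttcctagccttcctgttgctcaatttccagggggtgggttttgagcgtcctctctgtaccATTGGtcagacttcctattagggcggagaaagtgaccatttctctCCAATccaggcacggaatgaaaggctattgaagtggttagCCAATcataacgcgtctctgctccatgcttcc
Mcm5: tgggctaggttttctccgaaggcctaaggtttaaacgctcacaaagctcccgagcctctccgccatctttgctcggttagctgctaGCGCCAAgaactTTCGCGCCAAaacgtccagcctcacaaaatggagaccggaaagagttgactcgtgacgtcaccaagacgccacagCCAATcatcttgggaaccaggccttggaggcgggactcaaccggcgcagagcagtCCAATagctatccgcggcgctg
Mcm6: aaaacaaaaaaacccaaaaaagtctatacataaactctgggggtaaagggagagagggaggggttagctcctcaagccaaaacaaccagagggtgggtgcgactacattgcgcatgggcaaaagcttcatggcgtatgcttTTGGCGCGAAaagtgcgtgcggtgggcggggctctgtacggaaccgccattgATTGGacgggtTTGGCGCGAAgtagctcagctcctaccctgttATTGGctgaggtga
Mcm7: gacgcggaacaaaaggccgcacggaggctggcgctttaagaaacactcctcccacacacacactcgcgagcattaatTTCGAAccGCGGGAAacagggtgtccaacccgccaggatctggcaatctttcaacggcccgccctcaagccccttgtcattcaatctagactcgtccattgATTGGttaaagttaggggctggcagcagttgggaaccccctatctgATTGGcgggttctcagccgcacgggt
Cdt1: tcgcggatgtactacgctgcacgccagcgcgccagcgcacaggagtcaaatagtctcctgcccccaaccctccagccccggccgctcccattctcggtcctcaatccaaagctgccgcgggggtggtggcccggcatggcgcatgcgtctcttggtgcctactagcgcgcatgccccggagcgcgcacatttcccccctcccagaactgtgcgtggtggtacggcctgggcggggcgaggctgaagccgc
Mcm10: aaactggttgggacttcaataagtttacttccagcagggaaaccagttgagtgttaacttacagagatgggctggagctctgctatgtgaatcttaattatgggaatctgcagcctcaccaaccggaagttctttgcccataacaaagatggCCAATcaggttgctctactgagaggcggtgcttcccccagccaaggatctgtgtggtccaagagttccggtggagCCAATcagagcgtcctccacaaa

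E2F-type letters stood in the 300-base RefSeq entries (250 bases before to 50 after the start) of 6 of the 8 genes: Mcm3, Mcm5, Mcm6, Mcm7, Cdc6 and Cdt1. Such a match was held by 8.07% of all 32851 entries, and 14.2% of the entries of genes that passed the count filter did. At least 2 matches stood in 5 of the 8 genes (Mcm3, Mcm5, Mcm6, Mcm7 and Cdt1), against 0.871% of all entries and 1.77% of those of tested genes. Matches were counted where they overlapped, so that Mcm6, in which TTGGCGC on 1 strand runs into TTCGCGC on the other at positions -109 to -100 and again at -46 to -37 from the start base (position 0), has 2 matches at each place. Mcm5 held 3 matches between positions -164 and -143. In Mcm3 and Cdt1 every E2F-type match lay after the start, from position 19 in Mcm3 and from position 18 in Cdt1, and so outside the printed stretch. No such letters were found in the entries of Mcm2 and Mcm10.

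CCAAT letters stood in the entries of 6 of the 8 genes (Mcm2, Mcm3, Mcm5, Mcm6, Mcm7 and Mcm10), against 37.4% of all entries. In 5 of them, all but Mcm2, they occurred at least 2 times, against 11.7% of all entries. The CHR letters stood in Mcm2 and Mcm7, against 19.2% of all entries. GC content of the members' 300-base entries ran from 48.7% (Mcm3) to 66.7% (Cdt1). These are matches of letters, and the data hold no binding of an E2F or CCAAT factor. The 4 members with no printed stretch are annotated in the count table (mm10) at chr6:88883474-88898780 (Mcm2, minus strand), chr16:15623897-15637400 (Mcm4, minus strand), chr11:98907801-98923942 (Cdc6, plus strand) and chr13:24751845-24761937 (Gmnn, minus strand).

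RNA libraries held between 6865903 and 10287876 counts, and the 2 libraries of a group differed by more than counting noise in all 5 groups (chi-square per degree of freedom 2.56 to 12.1). Summed levels of 9 microglial markers ranged from 6979 to 9269 CPM (reads of a gene relative to the library's total) over the 10 libraries. Summed levels of 5 markers of border macrophages were 59.0 and 68.7 CPM in the adult libraries, 580 to 845 CPM at PND8 and 25.9 to 42.5 CPM in repopulation; Mrc1 made up most of the sum at PND8, and Lyve1 was at 0 in all 4 repopulation libraries. Summed levels of 6 monocyte and neutrophil markers were 61.6 and 210.9 CPM in the adult libraries and at most 9.26 CPM elsewhere, with Ly6c2 at 0 in 7 of the 10 libraries. Their part in the differences between groups was not tested. Of the other lists, 8 oligodendrocyte-lineage markers summed to 50.1 to 89.2 CPM, 4 astrocyte markers to 44.0 to 563.8 CPM (nearly all Slc1a3), 4 endothelial markers to 27.1 to 81.9 CPM, 5 erythroid markers to at most 75.4 CPM, 4 neuronal markers to at most 7.43 CPM and 4 lymphocyte markers to at most 1.10 CPM. In sorted bulk cells a lower level can mean fewer cells that express a gene or less RNA in each, and these cannot be told apart.

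Mki67, the gene behind the sort, was at 13.4 and 11 CPM in the adult libraries. It was at 242 and 282 CPM in PND8 Ki67-negative cells and at 919.6 and 1107 CPM in PND8 Ki67-positive cells. In repopulation it was at 336 and 463 CPM in Ki67-negative and at 930.1 and 1087 CPM in Ki67-positive cells. The Ki67-negative groups thus lay between adult and Ki67-positive cells and were not free of Mki67 RNA; the file headers call these groups Ki67Low and Ki67High.

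Levels in each library are given next as CPM scaled by the trimmed mean of M values (TMM), with replicate 1 before replicate 2, in the order of the groups. Overlap between groups of 2 libraries is described for single genes, and its share over all genes was not counted. Among the helicase subunits, Mcm5 stood at 11.8 and 13.2 CPM in adult cells, at 183 and 198 CPM in PND8 Ki67-negative, 104 and 111 CPM in PND8 Ki67-positive, 107 and 162 CPM in repopulating Ki67-negative, and 86.3 and 124 CPM in repopulating Ki67-positive cells. Both adult libraries were far below every other library, and PND8 Ki67-negative cells were the highest. Mcm6 followed the same order at PND8, with 21.5 and 23.7 CPM in adult, 216 and 216 CPM in PND8 Ki67-negative and 102 and 103 CPM in PND8 Ki67-positive cells. In repopulation Mcm6 was at 122 and 172 CPM in Ki67-negative and 78.8 and 119 CPM in Ki67-positive cells. The groups of each pair did not overlap for Mcm6, and replicate 2 of either repopulation group was above replicate 1.

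Mcm2 was at 16.1 and 14.9 CPM in adult, 172 and 169 CPM in PND8 Ki67-negative, 93.4 and 92.5 CPM in PND8 Ki67-positive, 74.6 and 126 CPM in repopulating Ki67-negative and 56.6 and 86.8 CPM in repopulating Ki67-positive cells. Its repopulation groups overlapped. Mcm4 was at 25.9 and 20.5 CPM in adult, 159 and 154 CPM in PND8 Ki67-negative, 83.7 and 86.8 CPM in PND8 Ki67-positive, 79.2 and 122 CPM in repopulating Ki67-negative and 48.9 and 75.1 CPM in repopulating Ki67-positive cells, with no overlap within either pair. Mcm7 had a higher adult level, 30.0 and 30.8 CPM, and reached 140.1 and 158 CPM in PND8 Ki67-negative, 85.0 and 84.6 CPM in PND8 Ki67-positive, 90.4 and 128 CPM in repopulating Ki67-negative and 74.3 and 95.6 CPM in repopulating Ki67-positive cells. Its repopulation groups overlapped. Mcm3 ranged from 72.9 and 72.7 CPM in adult cells to 253 and 250.3 CPM in PND8 Ki67-negative cells. In the other groups Mcm3 was at 179 and 193 CPM (PND8 Ki67-positive), 169 and 211 CPM (repopulating Ki67-negative) and 159 and 181 CPM (repopulating Ki67-positive).

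Of the loading factors, Cdc6, the ATPase that recruits the helicase to the origin recognition complex, was at 0.925 and 0.855 CPM in adult cells (8 and 7 counts). It was at 25.9 and 26.7 CPM in PND8 Ki67-negative and at 6.17 and 6.70 CPM in PND8 Ki67-positive cells, and in repopulation at 26.7 and 40.1 CPM in Ki67-negative and 12.5 and 16.8 CPM in Ki67-positive cells. Both PND8 Ki67-positive libraries were the lowest outside the adult group. Cdt1, which delivers the helicase ring, was at 17.9 and 16.5 CPM in adult, 105 and 117 CPM in PND8 Ki67-negative, 44.7 and 49.4 CPM in PND8 Ki67-positive, 65.5 and 85.3 CPM in repopulating Ki67-negative and 39.6 and 53.0 CPM in repopulating Ki67-positive cells. Neither Ki67 pair overlapped for Cdc6 or Cdt1.

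Mcm10, which is not part of the loaded ring and acts at its activation, was nearly absent from adult cells, at 0.925 and 0.611 CPM (8 and 5 counts). It was at 47.0 and 48.9 CPM in PND8 Ki67-negative, 30.7 and 29.4 CPM in PND8 Ki67-positive, 30.7 and 52.4 CPM in repopulating Ki67-negative and 31.8 and 41.5 CPM in repopulating Ki67-positive cells. The repopulation groups overlapped. Gmnn, the inhibitor, was at 1.27 and 3.06 CPM in adult cells (11 and 25 counts), 15.4 and 22.6 CPM in PND8 Ki67-negative, 11.2 and 12.5 CPM in PND8 Ki67-positive, 10.9 and 17.1 CPM in repopulating Ki67-negative and 13.0 and 16.6 CPM in repopulating Ki67-positive cells. The adult libraries were the lowest, and the range of the repopulating Ki67-positive group lay within that of the Ki67-negative group. Its relatives Gmnc and Mcidas were not tested, with at most 6 counts and at most 1 count in any library.

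**Figure D1:**
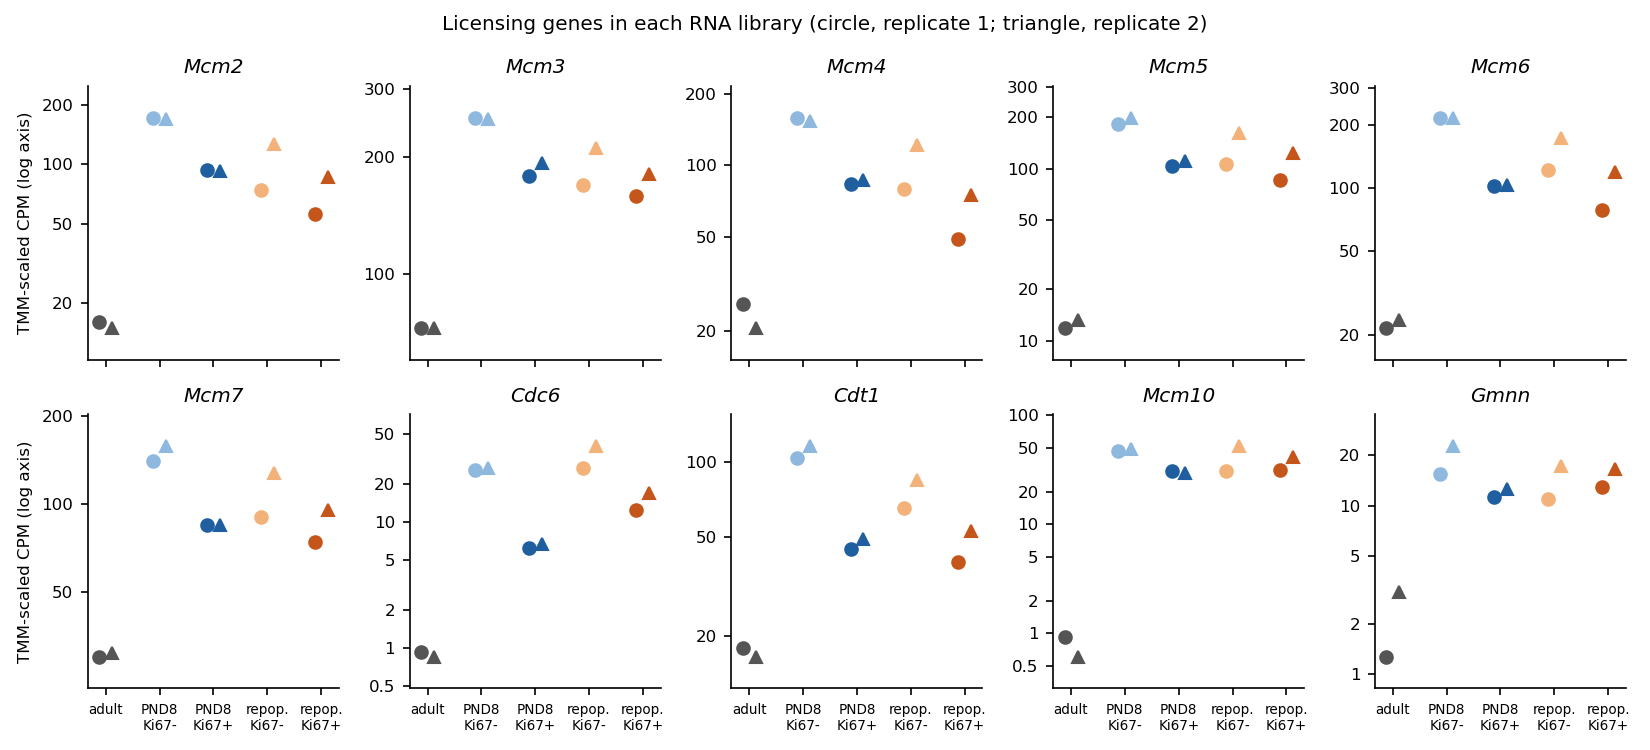
TMM-scaled CPM (log axis) of the 10 licensing genes in each of the 10 RNA libraries, with replicate 1 as a circle and replicate 2 as a triangle. Adult libraries are the lowest in every panel, and PND8 Ki67-negative libraries lie above PND8 Ki67-positive libraries for all 10 genes. The share of all genes that separate in these ways was not counted.

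Levels of different genes were compared per length, as TPM (transcripts of a gene relative to all transcripts, with length taken into account). Mcm3 had the highest TPM of the 6 ring subunits in all 10 libraries, although the ring holds 1 copy of each. Its TPM was 36.5 and 36.3 in adult cells, and ranged from 76.0 to 124.6 in the other libraries. The lowest subunit was Mcm5 in both adult libraries (5.24 and 5.84 TPM) and Mcm4 in the other 8. The ratio of highest to lowest subunit was 6.97 and 6.22 in adult libraries, 1.88 and 1.93 in PND8 Ki67-negative and 2.54 and 2.64 in PND8 Ki67-positive libraries. In repopulation it was 2.53 and 2.06 for the Ki67-negative and 3.84 and 2.85 for the Ki67-positive libraries. The spread between subunits was thus widest in the adult group, with no overlap with any other library. The mean TPM of the 6 subunits was 14.9 and 14.6 in adult libraries, against 39.7 to 92.3 elsewhere.

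As a share of the summed TPM of the 6 subunits, Mcm3 made up 40.9% and 41.4% in adult libraries and 22.5% to 31.9% in the other 8. Mcm7 also had a larger share in adult libraries, 21.2% and 22.2% against 16.1% to 18.8%. Mcm5 went the other way, at 5.87% and 6.65% in adult and 14.6% to 16.4% in the other libraries. Mcm2 (7.62% and 8.10% against 10.2% to 14.2%) and Mcm6 (11.7% and 12.3% against 15.3% to 19.2%) also had smaller adult shares, while the share of Mcm4 overlapped (9.85% and 12.3% against 8.31% to 12.3%). Between the Ki67 groups, Mcm6 made up 18.5% to 19.2% in the 4 Ki67-negative and 15.3% to 17.6% in the 4 Ki67-positive libraries. Mcm3 went the other way, at 22.5% to 26.8% in Ki67-negative and 27% to 31.9% in Ki67-positive libraries. The shares of the remaining subunits overlapped. The deposited tables use different transcripts for Mcm6, Mcm7, Cdc6 and Mcm10. With counts divided by the count table's own lengths, Mcm3 was still the highest in all 10 libraries, and the lowest subunit was the same in 8 and was Mcm6 in both PND8 Ki67-positive libraries.

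Cdt1 and its inhibitor Gmnn could be set side by side in TPM, since both tables use the same transcript for each. The ratio of Cdt1 to Gmnn was 6.26 and 2.4 in the adult libraries, where Gmnn rested on few counts. It was 3.03 and 2.3 in PND8 Ki67-negative against 1.77 and 1.76 in PND8 Ki67-positive cells, and 2.66 and 2.22 in repopulating Ki67-negative against 1.36 and 1.42 in repopulating Ki67-positive cells. All 4 Ki67-negative libraries lay above all 4 Ki67-positive libraries in this ratio. It was compared as a level of RNA only, with no test.

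**Figure D2:**
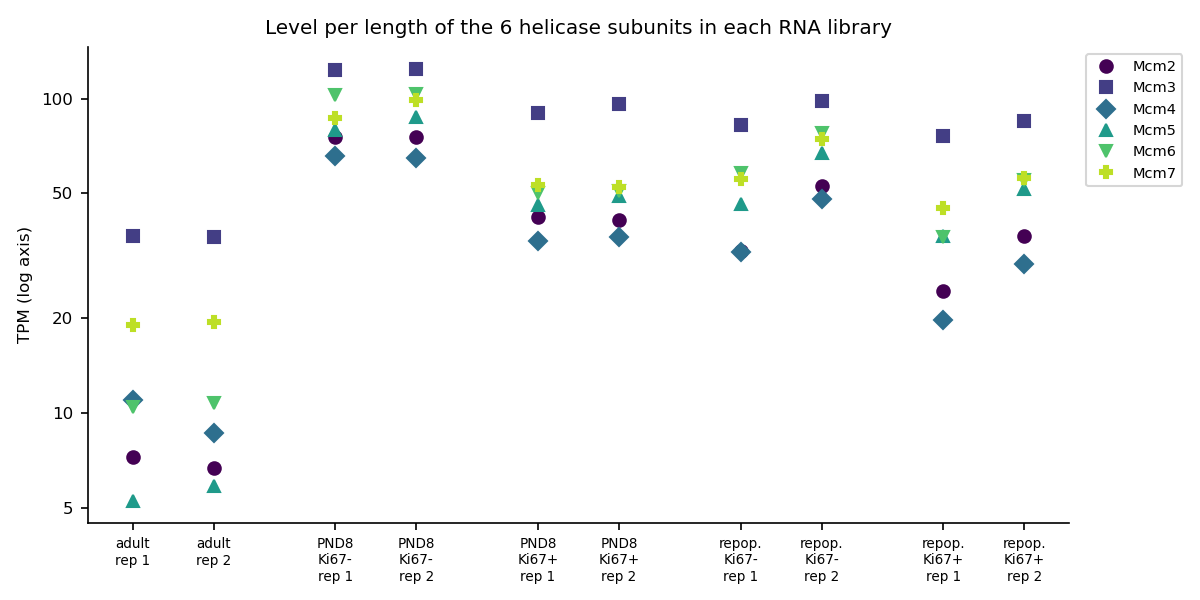
TPM (log axis) of the 6 helicase subunits in each RNA library, 1 symbol per subunit. Mcm3 is the highest in all 10 libraries, and the subunits are spread widest in the 2 adult libraries.

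At PND8, RNA of the licensing genes was lower in Ki67-positive than in Ki67-negative cells. The fall was largest for the loading factors: Cdc6 was 4.08-fold lower (log2 fold change -2.03, standard error 0.234, adjusted p 0.000173) and Cdt1 2.35-fold lower (-1.24, standard error 0.151, adjusted p 0.000249). All 6 helicase subunits fell by less, from Mcm6 (-1.07, adjusted p 0.00173) to Mcm3 (-0.43, adjusted p 0.0249). In all, 8 of the 10 genes passed the test in the lower direction, where 3.15% of the 12230 genes did (edgeR quasi-likelihood test, Benjamini-Hochberg adjustment over all genes tested). Their median log2 fold change was -0.85, against -0.03 for all genes tested. Differences below are log2 fold changes from this fit unless a fold is named.

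The other subunits gave -0.87 for Mcm2 (edgeR adjusted p 0.0206), -0.88 for Mcm4 (0.0153), -0.82 for Mcm5 (0.0125) and -0.82 for Mcm7 (0.00476). Mcm10 and Gmnn did not pass. Mcm10 was at -0.67 (95% interval -1.12 to -0.23, edgeR adjusted p 0.0746) and Gmnn at -0.69 (95% interval -1.31 to -0.06, edgeR adjusted p 0.204), and for both the 2 Ki67-positive libraries lay below the 2 Ki67-negative ones. Libraries that share a numeric code in the file headers can be compared as single pairs: the median over the 10 genes was -0.85 in either pair, with Cdc6 at -2.03 and -1.96. With a single library left out, the count of 8 was 5 without Ki67-negative replicate 2, 4 without Ki67-positive replicate 1 and 3 without Ki67-positive replicate 2; Cdc6, Cdt1 and Mcm6 passed each time. Against a fold of at least 2, Cdc6 alone passed.

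Among 30 tested genes of the wider pathway, 8 were lower, 3 were higher and 19 did not pass at PND8 (2.75% of all genes were higher, and 5.9% passed in either direction), with a median of -0.26. Dtl, the receptor that marks CDT1 for destruction, fell by 1.52 (edgeR adjusted p 9.02e-05). Orc1, the cell-cycle regulated subunit of the origin recognition complex, was at -1.13 (0.0199) and Orc6 at -0.96 (0.0111), while Orc2, Orc3, Orc4 and Orc5 did not pass. Cdc45, which joins the helicase when it is switched on, was at -0.92 (edgeR adjusted p 0.0303). Of the 13 helicase activation genes 5 were lower and 1 was higher: Dbf4, the regulatory partner of CDC7, rose by 0.93 (edgeR adjusted p 0.00268). Cdc20 rose by 2.81 (edgeR adjusted p 2.77e-05) and Fzr1 by 0.65 (0.00268); both activate the complex that destroys geminin. Cdc20 was at 12.4 and 26.0 CPM in Ki67-negative and at 131 and 145 CPM in Ki67-positive cells, so the genes of the 2 activators moved opposite to the licensing genes in the same libraries.

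In repopulation, Cdc6 and Cdt1 were again lower in Ki67-positive than in Ki67-negative cells. Cdc6 was 2.27-fold lower (log2 fold change -1.18, standard error 0.217, edgeR adjusted p 0.00804) and Cdt1 1.63-fold lower (-0.70, standard error 0.154, edgeR adjusted p 0.0259). These 2 of 10 passed in the lower direction, where 0.867% of all genes did. The helicase subunits were all on the lower side without passing the edgeR test: Mcm4 at -0.69 (adjusted p 0.0904), Mcm6 at -0.57 (0.102), Mcm2 at -0.48 (0.286), Mcm7 at -0.36 (0.275), Mcm5 at -0.35 (0.364) and Mcm3 at -0.16 (0.494). The median over the 10 genes was -0.42 and over all genes -0.00.

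At an unadjusted p under 0.05, 6 of the 10 genes passed in edgeR (1927 of 12230 genes), 6 in DESeq2 (1444 of 17073 genes) and 5 in limma on log2(TPM + 1) (1928 of 12230 genes). After adjustment DESeq2 called 4, adding Mcm4 and Mcm6, among 390 genes called of 17073. Mcm10 was at -0.17 (95% interval -0.62 to 0.28, edgeR adjusted p 0.764) and Gmnn at 0.09 (95% interval -0.56 to 0.73, edgeR adjusted p 0.931). Their intervals leave room for a fall as well as a rise. Within the pair of libraries of either header code the median was -0.36 and -0.47, with Cdc6 at -1.08 and -1.24. The count of 2 was 0 without Ki67-negative replicate 2 or without Ki67-positive replicate 1, and 4 without Ki67-positive replicate 2; with the header code as a term of the fit it was 7.

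Of the 30 pathway genes, 3 were higher (1.87% of all genes) and 1 was lower in Ki67-positive cells of repopulation, where 2.74% of all genes passed in either direction. Cdc20 rose by 2.83 (edgeR adjusted p 6.58e-05), Dbf4 by 0.91 (0.00736) and Fzr1 by 0.62 (0.00681), and Dtl fell by 0.88 (0.00732). Orc1 (-0.47, edgeR adjusted p 0.457) and Cdc45 (-0.38, edgeR adjusted p 0.452) did not pass.

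Whether the Ki67 difference itself differed between repopulation and PND8 was tested with an interaction term. No member passed, nor did any of the 12230 genes (0% called). All 10 estimates were positive, that is, the Ki67 difference was less negative in repopulation or above 0. They ran from 0.18 for Mcm4 to 0.85 for Cdc6 (95% interval 0.16 to 1.53), with edgeR adjusted p of at least 0.96. Their median was 0.485 against 0.0311 over all genes, and the share of all genes with a positive estimate was not counted. The 10 estimates rest on the same libraries, and that of Mcm4 was -0.153 without repopulating Ki67-positive replicate 2. At an unadjusted p under 0.05, edgeR gave 613 genes with 3 members (Cdc6, Cdt1 and Mcm7), DESeq2 381 genes with 2 members and limma on log2(TPM + 1) 623 genes with 2 members. After adjustment DESeq2 called 3 genes, none of them a member, and limma called 0.

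**Figure D3:**
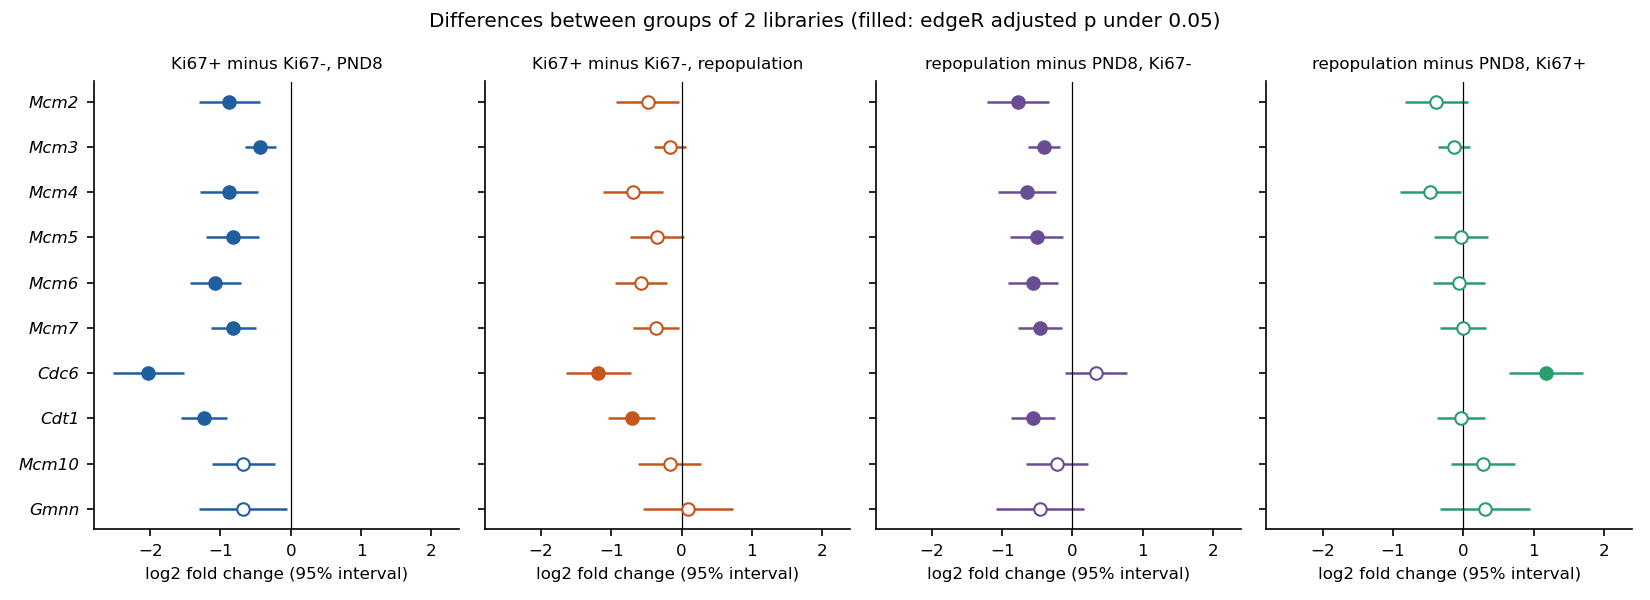
Log2 fold change of each licensing gene with its 95% interval in 4 comparisons of 2 libraries against 2, filled where the edgeR adjusted p was under 0.05. Cdc6 is farthest to the left in both Ki67 comparisons and is the only filled point to the right of 0 when repopulating Ki67-positive cells are compared with PND8 Ki67-positive cells.

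Among Ki67-negative cells, 7 of the 10 genes were lower in repopulation than at PND8, where 18.6% of all genes were lower and 36.6% passed in either direction: Mcm2 fell by 0.77 (edgeR adjusted p 0.00929), Mcm4 by 0.65 (0.0176), Cdt1 by 0.56 (0.00952), Mcm6 by 0.56 (0.0182), Mcm5 by 0.51 (0.035), Mcm7 by 0.46 (0.0263) and Mcm3 by 0.41 (0.00828). Cdc6 was on the other side, at 0.33 (95% interval -0.11 to 0.78, edgeR adjusted p 0.223). Mcm10 (-0.22, edgeR adjusted p 0.422) and Gmnn (-0.46, edgeR adjusted p 0.23) did not pass. The median was -0.49 against -0.04 over all genes.

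This comparison leaned on single libraries: none of the 10 passed in edgeR without repopulating Ki67-negative replicate 1, 8 passed without replicate 2, and 3 passed without PND8 Ki67-negative replicate 2. In the 2 libraries that share a header code, 1 of each group, the median was -0.83 and Cdc6 was at -0.00. Among the 30 pathway genes 8 were lower, among them Gins2 (-0.99) and Gins1 (-0.87), subunits of the GINS complex, and Orc1 (-0.85, edgeR adjusted p 0.0201). Cdc45 (-0.12, edgeR adjusted p 0.719) and Dtl (-0.17, edgeR adjusted p 0.397) did not pass.

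Among Ki67-positive cells, Cdc6 was 2.26-fold higher in repopulation than at PND8 (log2 fold change 1.18, standard error 0.244, edgeR adjusted p 0.0026). It was the 1 member of 10 that passed, where 16.7% of all genes were higher and 30.9% passed in either direction. The other 9 members lay between -0.47 (Mcm4, edgeR adjusted p 0.0947) and 0.31 (Gmnn, edgeR adjusted p 0.472). For Cdt1, the other loading factor, the difference was -0.03 with a 95% interval from -0.37 to 0.31. In the 2 libraries of a shared header code Cdc6 was at 0.88 and the median of the 10 at -0.30. With the header code as a term of the fit Cdc6 was lower, at 0.87, and still passed, and 7 other members passed as lower, from Mcm4 (-0.80) to Mcm7 (-0.27); without repopulating Ki67-positive replicate 2, Mcm4 (-0.80) and Mcm2 (-0.72) passed as lower besides Cdc6. Dtl was higher in repopulation (0.46, edgeR adjusted p 0.0494), and 5 of the 30 pathway genes were lower (14.2% of all genes), among them Dbf4 (-0.57), Orc2 (-0.49) and Topbp1 (-0.41). Orc1 (-0.19, edgeR adjusted p 0.661) and Cdc45 (0.42, edgeR adjusted p 0.202) did not pass.

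All 10 licensing genes passed the edgeR test as higher than adult cells in each of the other 4 groups. Their libraries did not overlap with the adult ones, and the share of all genes without such overlap was not counted. Of all genes, 25.1% were higher than adult in PND8 Ki67-positive, 25.4% in PND8 Ki67-negative, 23.9% in repopulating Ki67-positive and 21.5% in repopulating Ki67-negative cells. The largest differences were those of Mcm10, from 5.26 (standard error 0.362) in PND8 Ki67-positive to 5.93 (standard error 0.348) in PND8 Ki67-negative cells. Cdc6 rose by 2.83 in PND8 Ki67-positive, 4.86 in PND8 Ki67-negative, 4.01 in repopulating Ki67-positive and 5.19 in repopulating Ki67-negative cells. Gmnn rose by 2.46 to 3.14 and Cdt1 by 1.42 to 2.68. The highest edgeR adjusted p among these 40 values was 0.000175. Adult libraries have a header code of their own and lack the reporter allele, so these cannot be told apart from the adult state.

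The ring subunits rose by unlike amounts. Mcm5 rose most, by 3.11 in PND8 Ki67-positive, 3.93 in PND8 Ki67-negative, 3.07 in repopulating Ki67-positive and 3.42 in repopulating Ki67-negative cells. Mcm3 rose least in each, by 1.36, 1.79, 1.22 and 1.38 in the same order. Between them lay Mcm2 (2.20 to 3.46), Mcm6 (2.12 to 3.26), Mcm4 (1.41 to 2.75) and Mcm7 (1.48 to 2.3). The 4 comparisons use the same 2 adult libraries and are not independent.

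Of the 30 pathway genes, 22 were higher and 2 lower than adult in PND8 Ki67-positive cells, where 24.3% of all genes were lower and 49.5% passed in either direction. The counts were 23 and 1 in PND8 Ki67-negative (21.4% lower, 46.8% either), 21 and 3 in repopulating Ki67-positive (21% lower, 44.9% either) and 18 and 1 in repopulating Ki67-negative cells (17.6% lower, 39.2% either). Ticrr, which helps load CDC45, rose by 5.22 to 5.80 and Dtl by 4.50 to 6.03. Cdc20 rose by 6.36 in the PND8 and 6.21 in the repopulating group of Ki67-positive cells. Cdc45 rose by 3.20 to 4.12, and Orc1 by 1.30 to 2.61. The origin recognition complex was mixed: Orc4 was lower than adult in all 4 groups (-0.56 to -0.45, highest edgeR adjusted p 0.005), and Orc5 was lower than adult in the repopulating Ki67-positive group (-0.37, edgeR adjusted p 0.0351). Donson, a factor of replication forks and helicase activation, was lower than adult in the 2 Ki67-positive groups (-0.82 and -0.41).

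Across the 10 RNA libraries, the genes with profiles most like the mean of Mcm2 to Mcm7 were Wdr90 (Pearson r 0.995), Pole2 (0.993), Pola1 (0.993), Dnmt1 (0.992) and E2f1 (0.992). For Gmnn alone they were Cenph (0.987), Timeless (0.987), Chaf1a (0.985), Recql4 (0.981) and Rpl9 (0.981). The libraries fall into adult and other groups, so the gap between these sets much of each r. Ranked by Spearman's rho, the nearest to the ring profile were Rfc2, Gins2, Rfc4, Prim2 and Chaf1a, none of which was among the 5 by Pearson. Of the members outside the ring, Cdt1 was closest to the ring profile (r 0.974), followed by Mcm10 (0.959), Gmnn (0.941) and Cdc6 (0.925).

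Promoters were read as a window of 1 kb on each side of the start used in the count table, and a peak was counted where it overlapped the window by at least 1 bp. All 10 licensing promoters were open and trimethylated in adult cells. An ATAC-seq peak was present at 10 of 10 in the adult (56% of all genes), PND8 Ki67-positive (58.4%) and repopulating Ki67-positive (60.8%) lists, where 54.6% of all genes and 86.8% of genes past the count filter had a peak in every list. H3K4me3 was present at 10 of 10 in both adult lists (60.7% and 60% of all genes), and in both at once at 59.1% of all genes and 89.8% of genes past the filter. Both marks were thus as frequent among the members as among most expressed genes. Signals of the peaks are the authors' normalized tag counts and were ranked within each list only.

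Within each ATAC-seq list, Mcm4 ranked highest among the members, at percentiles 90.9 (adult), 95.7 (PND8) and 92.5 (repopulation) of that list's promoter peaks. Mcm3 was at percentiles 89.8, 91.6 and 90.1, and Cdt1 was at 35.7, 50.0 and 39.3, in the same order. The lists differ in length (71642 to 95411 peaks), so these ranks show no change between them. For the promoters printed above, the peak centres lay near the RefSeq start, for example at -102, -67 and -72 bp for Mcm3 and at -71, -84 and -22 bp for Mcm5 in the same order of lists. For Mcm10 the centres lay at -488, -450 and -453 bp from the count table's start, which is -41, -3 and -6 bp from the RefSeq start used for its printed sequence. Where a window held more than 1 peak, the peak with the highest signal was read. Gmnn had 2 peaks in each ATAC-seq list, and the higher one was centred inside the annotated gene, at 406, 416 and 406 bp after the start. In the adult H3K4me3 lists Mcm7 ranked highest (percentile 87.6 in both) and Cdc6 lowest (11 and 8.48).

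H3K27ac peaks were at fewer licensing promoters in the adult lists than in most other lists, where they were at nearly all 10. Of the 10 promoters, 4 and 6 held a peak in the 2 adult lists, where 41.3% and 46% of all genes did. Shares among genes past the count filter were not counted list by list, but 64.3% of those genes held a peak in every H3K27ac list. The share of those genes in each adult list was thus at least 64.3%, above that of the members. This gap was not tested. All 10 held a peak in each of the 4 PND8 lists, Ki67-negative (48.6% and 49.6% of all genes) and Ki67-positive (49.5% and 51.1%) alike. In repopulation 10 and 9 did (50.6% and 47.8%), the exception being Cdc6. In cuprizone the 2 Ki67-negative lists held 5 and 10 (44% and 49.7%) and the 2 Ki67-positive lists 9 and 10 (46% and 50.8%). The 2 Ki67-negative cuprizone lists thus differed by 5 promoters from each other.

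The promoters of Mcm2, Mcm6, Cdc6 and Mcm10 held H3K27ac in all 4 PND8 lists and in neither adult list, a pattern of 2.34% of all genes and 3.8% of genes past the count filter. Mcm2 held it in every list except the 2 adult ones, as 0.481% of all genes did. Mcm4, Mcm7 and Cdt1 held it in all 12 lists (38.1% of all genes, 64.3% of genes past the filter). Cdc6 held it in 7 lists, Mcm6 and Mcm10 in 9, Mcm2 and Mcm3 in 10, and Mcm5 and Gmnn in 11, and no member lacked it in all 12, as 46.6% of all genes did. Lists are also split by header code: the 4 lists that share the code of adult replicate 2 held 6 (adult), 10, 10 and 10 promoters, and the code of cuprizone replicate 1 held 10, 5, 10 and 9. Adult replicate 1 was alone with its code and had the fewest peaks, 19572 against up to 30539. The next shortest lists were cuprizone Ki67-negative replicate 1 (24082 peaks, 5 promoters) and adult replicate 2 (24903 peaks, 6 promoters). Cuprizone Ki67-positive replicate 1 came after them, with 25108 peaks and 9 promoters. The part of list length in the adult pattern and in the gap between the cuprizone lists was not tested.

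The position and strength of these peaks differed between members. Cdt1 had the highest signal, between percentiles 89.9 and 98.9 of promoter peaks in all 12 lists. Signal was not divided by width, and the Cdt1 regions were 2293 to 4769 bp wide. When the centre of a peak had to lie in the window, Cdt1 lacked a peak in 7 of the 12 lists. Its region lay upstream: in both adult lists and in cuprizone Ki67-negative replicate 1 it ran from about 4 kb before the start (-4054, -4033 and -4176 bp) and ended before it (-147, -103 and -95 bp), and in the other 9 lists it crossed the start. Cdc6 had the lowest signal, between percentiles 0.44 and 19.5 where a peak was present. Mcm7 ranged from percentile 33.2 to 72.7 and Mcm4 from 3.99 to 57, and for both the highest values came from PND8 or repopulating cells.

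**Figure D4:**
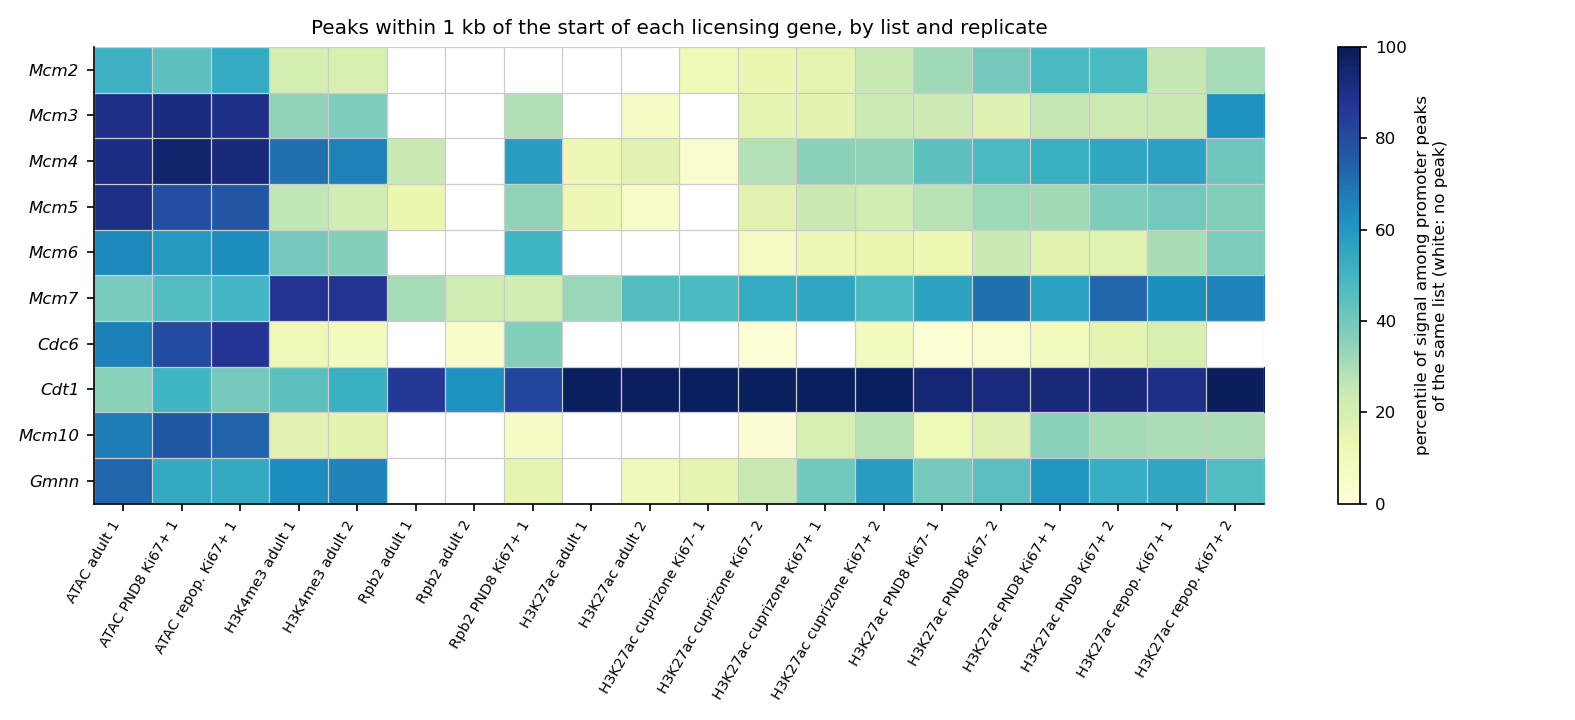
Percentile of signal of the promoter peak of each licensing gene among all promoter peaks of the same list, by list and replicate, with white where the list has no peak. All ATAC-seq and H3K4me3 cells are filled, adult H3K27ac has 10 filled cells of 20, and PND8 H3K27ac is filled throughout.

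RNA polymerase II, read through Rpb2, was found at 4 and 3 of the 10 promoters in the adult lists (36% and 30.6% of all genes) and at 9 in the PND8 Ki67-positive list (48.4%). Mcm7 and Cdt1 held it in all 3 lists, as 27.9% of all genes and 47.1% of genes past the count filter did. Among genes past the filter, the share in each single list was thus at least 47.1%. In adult replicate 1 the others were Mcm4 and Mcm5, and in adult replicate 2 Cdc6, whose peak centre lay 934 bp before the start. Mcm3, Mcm6, Mcm10 and Gmnn held Rpb2 in the PND8 list and in neither adult list, a pattern of 10.8% of all genes and 16.9% of genes past the count filter. Mcm2 had no Rpb2 peak in any list, like 50.7% of all genes. The PND8 list held 31602 peaks against 14550 and 10544 in the adult lists and had a single library, so these counts have no replicate check at PND8.

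**Figure D5:**
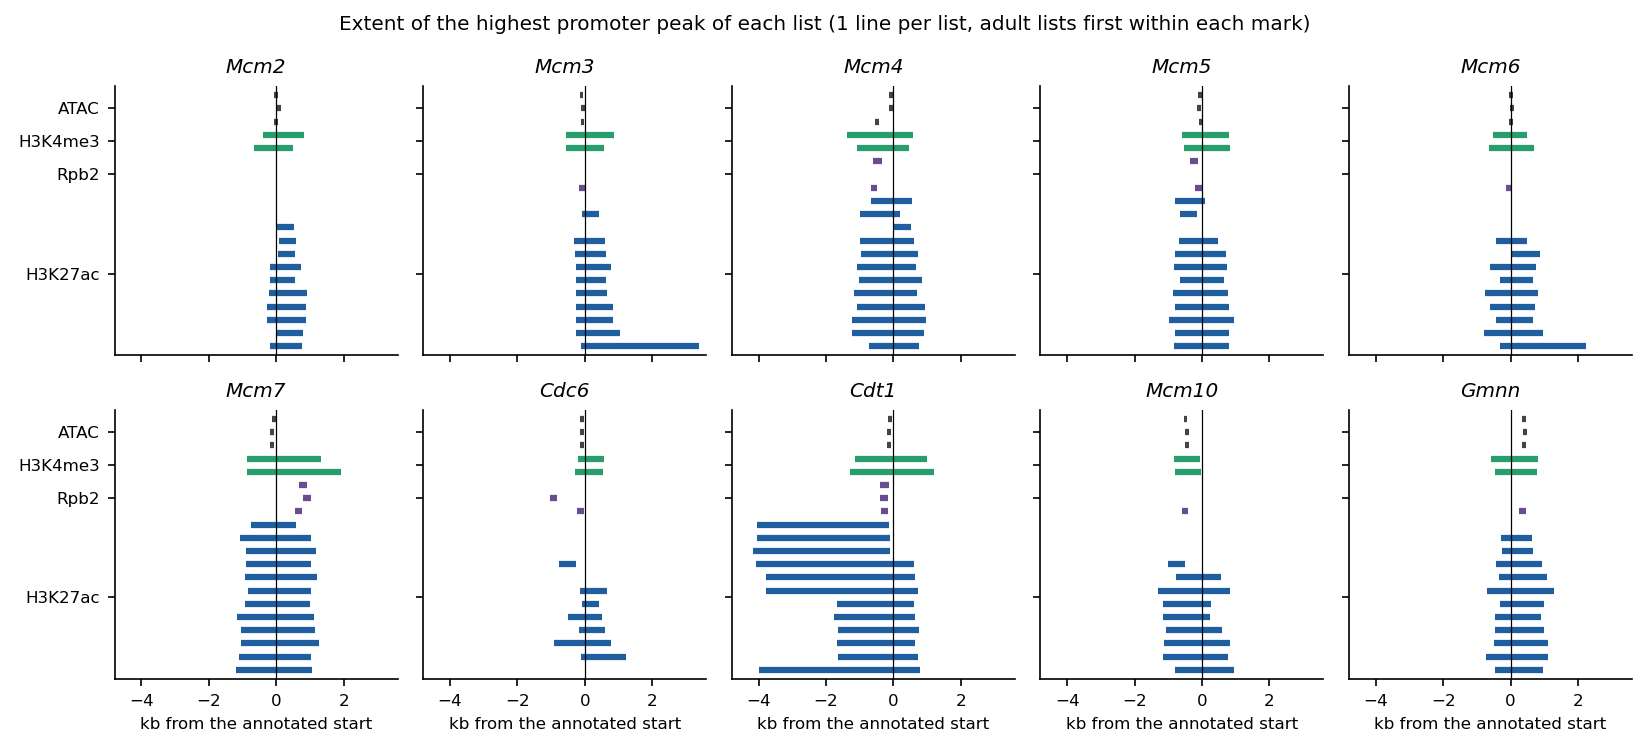
Extent of the highest promoter peak of each list relative to the annotated start (kb, negative upstream), 1 line per list, coloured by mark. Cdt1 H3K27ac regions reach -4054 and -4033 bp in the adult lists and -1637 to -1766 bp in the PND8 lists, Mcm10 ATAC-seq peaks centre before the count table's start, and the Mcm3 region of repopulating replicate 2 is 3496 bp wide.

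The windows of 2 members hold the start of another gene within 1 kb, as do 10.9% of all genes. Prkdc, a DNA repair kinase gene, starts 466 bp from Mcm4 on the opposite strand, and Ap4m1, an adaptor complex subunit gene, 138 bp from Mcm7. A peak there cannot be given to either gene of the pair alone. Prkdc did not pass in any comparison (for example -0.34 in PND8 Ki67-positive against adult cells, edgeR adjusted p 0.0514). Ap4m1 was lower in PND8 Ki67-positive than in Ki67-negative cells (-0.54, edgeR adjusted p 0.0243) and than in adult cells (-0.33, 0.0485), where Mcm7 was higher than adult.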

How the data were processed

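RNA was measured in 10 libraries of sorted microglia, and chromatin peaks were deposited for 20; 16 input libraries were not used as values. Cells were sorted on CD11b, CD45 and CD44 after Percoll, and the homogenisation buffer held sodium butyrate, an inhibitor of histone deacetylases, and a compound spelt Flavoperidol, per the labels' protocols. Reads were processed with STAR 2.7.0f, Bowtie2 2.3.4.1 and HOMER 4.11 on mm10, per the submitters' processing notes. The deposited counts are raw exon counts per gene, with at most 3 reads per position, per the file headers; whether counting used strand is not given in the sources used here. The deposited TPM values come from the same program, per the file headers. The deposited peak signal is the normalized tag count per 10000000 tags and the deposited peak score is HOMER's findPeaks score; peaks were called per library, per the file headers.

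Counts were filtered (filterByExpr), TMM-scaled and fitted with edgeR 4.0.16 (quasi-likelihood, 5 groups together, R 4.3.3), with Benjamini-Hochberg adjustment over 12230 genes at 0.05. Intervals are 95% intervals from the moderated t distribution. DESeq2 1.42.0, limma 3.58.1 on log2(TPM + 1) and log2(TPM + 0.1), other filters, scalings and designs, and leaving out each library were alternatives. Of 32 further pathway genes (30 tested), the 3 with the largest called change in each direction were named in each comparison, with Orc1, Cdc45 and Dtl always; Mki67, the 5 genes nearest by Pearson r to the profiles of Mcm2 to Mcm7 and of Gmnn, and genes starting within 1 kb of a member were named as well. Other genes were named after their values were seen. Peaks were read at 1 kb on each side of each start (pandas 2.3.3), and sequences are RefSeq entries of GRCm38.p6. The tests were tested on simulated data. The members, lists and tests were chosen with earlier results of these data known.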

Additional observations from a re-analysis of the deposited data

How the results depend on the processing

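All 10 members stayed called above adult cells in each of the 4 comparisons under the alternatives run and without any single library, except that 8 passed against a fold of at least 2 in repopulating Ki67-positive cells. At PND8 the count of 8 members lower in Ki67-positive cells was 1 against a fold of at least 2, and 3 to 8 with a library left out. In repopulation the count of 2 was 0 against a fold of at least 2, 1 with limma on log2(TPM + 0.1), 1 with only the groups compared, 4 with DESeq2, 6 with no filter on low counts, 7 with the header code as a term, and 0 to 4 with a library left out. Between repopulating and PND8 Ki67-positive cells the count of 1 was 0 against a fold of at least 2, 2 with library sizes alone or only the groups compared, 3 with no filter on low counts, 8 with the header code, and 1 to 3 with a library left out. Between the Ki67-negative groups the count of 7 was 0 against a fold of at least 2 and 0 to 8 with a library left out. The interaction called 0 members in each of its 8 fits without a library. The cause of these changes was not tested. The header code could not be fitted against adult cells, which have a code of their own.

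Labels do not say that replicate numbers pair libraries, and the correlation of deviations between libraries of 1 number was 0.338 at PND8, 0.263 in repopulation and -0.0084 to 0.0974 between other groups. With the replicate block the count was 4 in repopulation, 2 between repopulating and PND8 Ki67-positive cells, 9 at PND8, 7 between the Ki67-negative groups and 10 in each adult comparison.

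Log2 fold changes of members near 0 changed sign with a library left out. Over the 4 libraries of the comparison, each left out in turn, values in repopulation ran from -0.216 to 0.427 for Gmnn, -0.522 to 0.25 for Mcm10 and -0.318 to 0.000408 for Mcm3. Between repopulating and PND8 Ki67-positive cells they ran from -0.249 to 0.145 for Cdt1, -0.318 to 0.177 for Mcm5, -0.382 to 0.187 for Mcm6 and -0.192 to 0.145 for Mcm7. Between the Ki67-negative groups Mcm10 ran from -0.644 to 0.128. The interaction of Mcm4 ran from -0.153 to 0.515 over 8 libraries. The header code put Gmnn at -0.128 and Mcm10 at -0.0179 between repopulating and PND8 Ki67-positive cells.

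With peaks scoring above their list's median only, promoters marked in every list numbered 1 for H3K27ac (3 with all peaks), 5 for H3K4me3 (10) and 1 for Rpb2 (2); Rpb2 also gave 1 within 500 bp. ATAC-seq gave 10 in each alternative. None (0) of the 5 genes nearest the ring profile was kept by Spearman's rho. Each group had 2 libraries, and Cdc6, Mcm10 and Gmnn had 5 to 25 counts in adult libraries, which limits the precision of their adult differences.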
